A study of Mus musculus with 3 samples.

Results

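Messenger RNAs for the proteins of the mitochondrial ribosome were measured in effector memory CD4+ T cells. The members are the protein-coding genes of the GENCODE M21 annotation whose symbol starts with Mrpl or Mrps and a number, and 78 of 21951 protein-coding genes met that rule. By their known place in the mammalian mitoribosome, 51 encode large subunit proteins and 26 encode small subunit proteins. The remaining gene, Mrps36, carries the name of a small subunit protein but encodes a component of the alpha-ketoglutarate dehydrogenase complex. The symbols also mislead for Mrps30 and Mrps18a, whose products sit in the large subunit as mL65 and mL66, and both genes are counted there.

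The mitoribosome translates the few messages encoded by mitochondrial DNA, all of which specify membrane-bound subunits of the respiratory chain and ATP synthase. Its RNAs are made inside the organelle, whereas all of its proteins are encoded in the nucleus, made on cytosolic ribosomes and imported. Some of its proteins descend from the bacterial ribosome and others were added in the mitochondrial lineage. T cells raise mitochondrial protein synthesis when they are activated, and some memory T cells are known for their reliance on mitochondrial respiration. Respiration of the cells used here was not measured.

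The RNA was polyadenylated RNA of CD4+ alpha-beta T cells of the effector memory type, taken from 1 male adult C57BL/6J mouse of 7 months with no further treatment or allele named. It was sheared acoustically to a size range of 100 to 300, per the labels. The 3 libraries are technical replicates 1, 2 and 3 of biological replicate 1, so there is 1 group and no second condition, and every SD given is the technical spread of n = 3 libraries. Gene counts summed to 16244737, 14872620 and 14146342 in libraries 1, 2 and 3. The 7 T cell markers summed to between 6745 and 7675 TPM, a length-corrected share of all transcripts. The B cell markers (4 genes) summed to at most 1.46 TPM, the myeloid markers (4 genes) to at most 2.13 TPM and the CD8 markers (2 genes) to at most 5.14 TPM. Of the stromal list (3 genes, 64.7 to 65.8 TPM), Pecam1 held 59.7 ± 0.636 TPM, Epcam 5.24 ± 0.883 TPM and Col1a1 0.347 ± 0.0709 TPM. The libraries hold bulk RNA, so the number of cells with a transcript and its amount per cell cannot be told apart.

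All 78 genes were detected at 1 TPM or more in every library. In all, 71 of them (the 7 exceptions are named with their values) stood at 10 TPM or more in every library, a level that 33% of all protein-coding genes reached. A gene's TPM sums all its annotated transcripts, whether or not they are annotated as protein coding. With protein-coding transcripts alone, a setting added after seeing the data, 57 members stood at that level. The share of all genes was not recomputed that way. The median member stood at 39.6 ± 0.638 TPM, against 44.9 ± 1.49 TPM for the 7247 protein-coding genes that passed 10 TPM in every library. Together the 78 genes held 0.413%, 0.407% and 0.427% of protein-coding TPM in libraries 1, 2 and 3. The members' total counts over the libraries ran from 297 to 3259 with a median of 950.

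Levels were spread over a 31.5-fold range of mean TPM, from 5.46 TPM for Mrpl23 to 172 TPM for Mrpl33. The middle 50% of members lay between 25.6 and 63.1 TPM, which is a 2.46-fold range. Ordered by mean level, 76 of the 77 neighbouring pairs had overlapping ranges over the libraries, so most neighbours could not be ranked. The exception was the step from Mrpl33 down to Mrpl32. The order was shared by the libraries, with a Spearman rho of 0.97 for each pair over 78 genes that share annotation and quantification. Across members, mean TPM fell with effective length at a rho of −0.53 (n = 78), and at −0.24 over the 7247 protein-coding genes above 10 TPM.

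**Figure D1:**
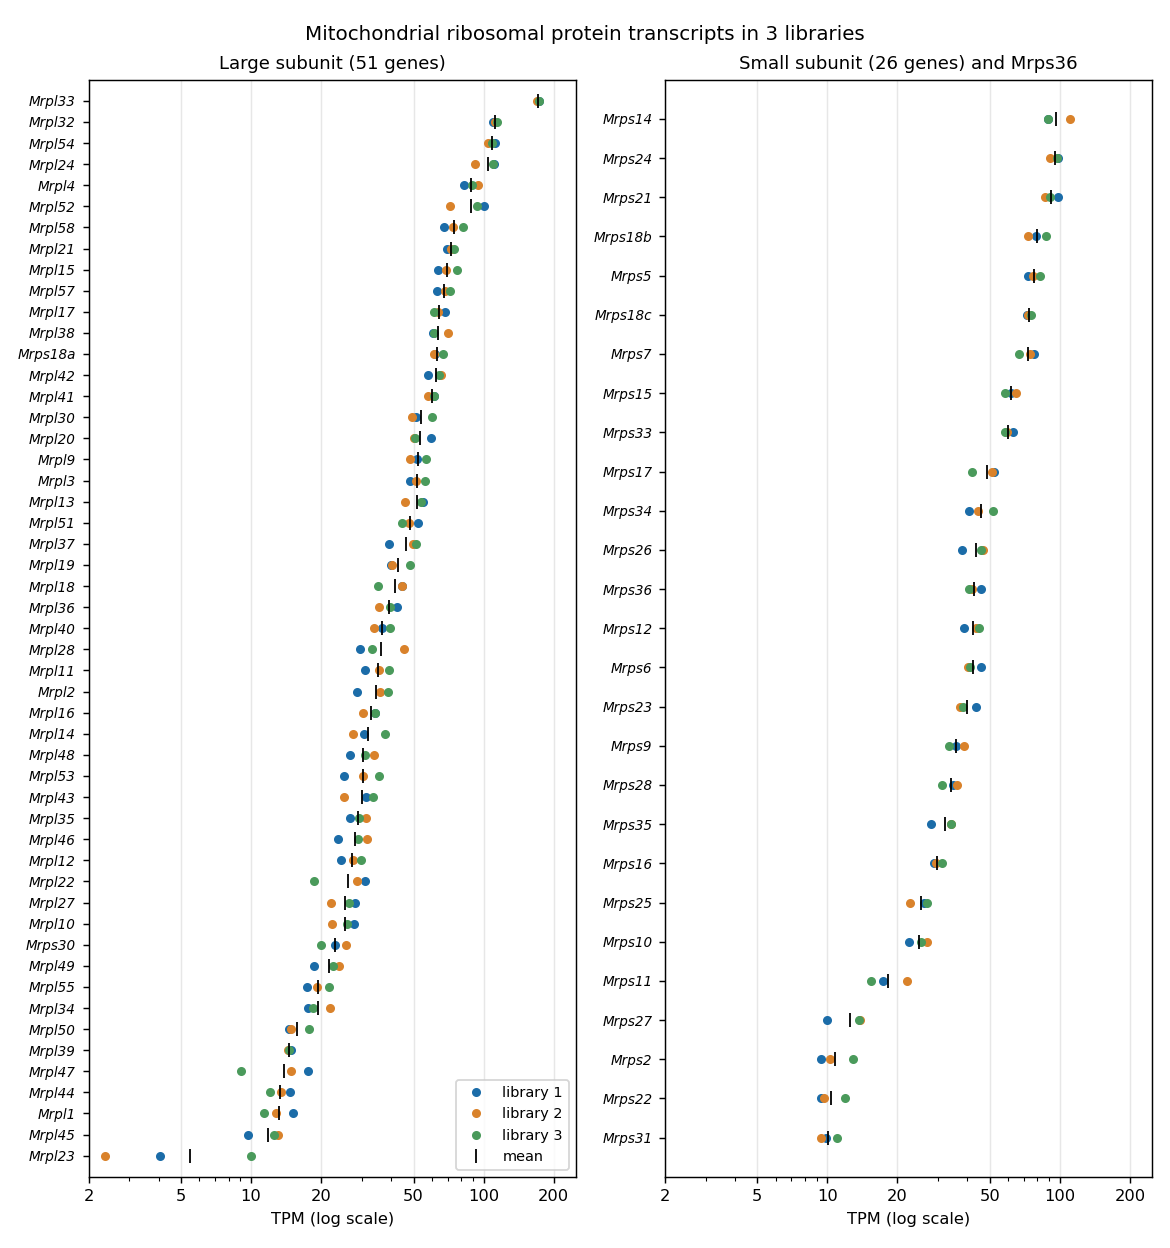
TPM (log axis) of each mitochondrial ribosomal protein gene in libraries 1, 2 and 3 (coloured points), with the mean as a vertical bar, ordered by mean level within each subunit. Mrpl33 stands apart at 172 TPM, Mrpl23 lies lowest with the widest spread, and the small subunit spans 10.1 to 95.9 TPM. The Mrpl23 values rest on how reads shared with a pseudogene were assigned.

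Large subunit genes had a median of 36.6, 36.04 and 39.3 TPM in libraries 1, 2 and 3, and small subunit genes had a median of 39.8, 41.9 and 41.6 TPM. The small subunit median was the higher of the pair in each library, at 41.1 ± 1.14 TPM against 37.3 ± 1.71 TPM. With counts of the second deposited gene table divided by length, that order turned, at 79.8 for the small and 84.3 for the large subunit on that table's own scale. The middle 50% of the large subunit genes lay between 25.8 and 62.9 TPM and that of the small subunit genes between 26.3 and 70.1 TPM, so the levels of the subunits overlapped. Genes whose systematic protein name is shared with the bacterial ribosome (45 genes) had a median of 42.4 ± 1.23 TPM, and those with a name used only for mitochondria (32 genes) a median of 34.9 ± 1.68 TPM. The second class includes Mrps18a and Mrps18b, which are related to a bacterial protein but named mL66 and mS40. Within the large subunit these medians were 39.9 ± 0.541 and 35.1 ± 2.14 TPM, and within the small subunit 46.5 ± 2.95 and 34.9 ± 1.72 TPM. No test was made of these differences between gene classes.

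The most abundant large subunit message was Mrpl33, which encodes bL33m, a short protein near the exit site for spent tRNA. Its gene (ENSMUSG00000106918.3) lies on chromosome 5 from 31596935 to 31664384 on GRCm38/mm10. Mrpl33 measured 173.83, 169.96 and 172.44 TPM, an SD of 1.96 TPM. Mrpl32, whose product bL32m is trimmed by a protease of the inner membrane before it joins the ribosome, measured 110.08, 112.24 and 114.51 TPM. Mrpl54, a protein specific to mitochondria, measured 111.61, 104.95 and 108.44 TPM. These 3 genes were the members above 100 TPM in every library. Mrpl24, whose bacterial homologue binds early in assembly beside the peptide exit tunnel, measured 111.4, 92.31 and 109.3 TPM, with library 2 the low one.

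Proteins that build the core around the peptidyl transferase centre were unequal in their messages. Mrpl4, whose product lines the exit tunnel, measured 82.54, 94.31 and 89.04 TPM. Mrpl3 stood at 48.27, 51.44 and 56.04 TPM, and Mrpl2, which lies next to the catalytic centre, at 28.49, 36.04 and 38.9 TPM. Over all transcripts, all 3 Mrpl4 values exceeded all Mrpl3 values, and all Mrpl3 values exceeded all Mrpl2 values. In protein-coding transcripts alone the order of Mrpl3 and Mrpl2 turned. Mrpl3 held 7.51, 4.43 and 3.55 TPM there, and Mrpl2 23.83, 23.19 and 31.73 TPM. Mrpl15, another core protein, measured 69.6 ± 6.56 TPM, of which its coding transcripts held 8.85 ± 1.93 TPM.

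The stalk that recruits translation factors is formed by the products of Mrpl10 and Mrpl12. Mrpl10 measured 27.61, 22.39 and 25.89 TPM and Mrpl12 24.26, 27.5 and 29.75 TPM. The ranges of this pair overlapped, at means of 25.3 ± 2.66 and 27.2 ± 2.76 TPM. Mrpl1, which forms the opposite stalk beside the exiting tRNA, was lower at 15.18, 12.82 and 11.4 TPM, outside the range of both.

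Other proteins sit at the exit of the peptide tunnel, which faces the inner membrane. Mrpl45, whose product anchors the ribosome to the membrane, measured 9.73, 13.00 and 12.60 TPM. Mrpl47 (uL29m), which borders the exit, measured 17.52, 14.80 and 9.08 TPM, with library 3 the low one. Its protein-coding transcripts held 1.99 ± 0.638 TPM. Mrpl23, also at the exit, measured 4.05, 2.36 and 9.97 TPM and was the lowest of all members. The value of Mrpl23 rests on how reads shared with a pseudogene were assigned, as described with the sequences. Mrpl44, a protein with the fold of a ribonuclease, measured 14.68, 13.39 and 12.03 TPM.

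Mrpl58, a peptidyl-tRNA hydrolase that also frees stalled ribosomes, measured 67.61, 74.13 and 81.79 TPM. That is above the median of its subunit in every library. Mrpl57 (mL63) and Mrpl51 (mL51), both specific to mitochondria, measured 67.6 ± 4.45 and 48.2 ± 3.84 TPM over all transcripts. Their protein-coding transcripts held 1.07 ± 0.430 and 2.98 ± 0.0808 TPM.

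In the small subunit the highest levels over all transcripts were those of Mrps14, Mrps24 and Mrps21. Mrps14, a protein of the head, measured 88.57, 110.2 and 88.89 TPM, and Mrps24 (uS3m), which lines the entry path of the message, measured 97.8, 90.69 and 97.14 TPM. Mrps21 measured 98.11, 85.99 and 90.33 TPM, so the ranges of these 3 genes overlapped. Mrps5, also at the entry of the message, measured 73.16, 76.49 and 81.91 TPM. Mrps7, a head protein that contacts tRNA, measured 77.37, 74.63 and 66.87 TPM. Mrps12, whose product forms part of the decoding centre, measured 38.85, 43.69 and 44.71 TPM, below both in every library. In protein-coding transcripts alone, Mrps12 held 31.44, 28.11 and 33.95 TPM, above Mrps5 at 29.1, 18.98 and 27.22 TPM. Mrps7 held 39.03, 36.16 and 33.22 TPM there, above Mrps12 in libraries 1 and 2 only. Mrps11, a platform protein, measured 18.2 ± 3.33 TPM over all transcripts, and Mrps16 29.7 ± 1.31 TPM. Their protein-coding transcripts held 4.06 ± 2.75 and 1.71 ± 0.445 TPM.

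The lowest small subunit levels over all transcripts were those of Mrps31, Mrps22, Mrps2 and Mrps27. Mrps31 measured 9.87, 9.43 and 10.99 TPM and Mrps22 9.37, 9.71 and 11.89 TPM. Mrps2, a protein with a bacterial homologue, measured 9.36, 10.21 and 12.83 TPM. Mrps27, a protein with RNA-binding pentatricopeptide repeats, measured 9.92, 13.81 and 13.73 TPM. The ranges of these 4 genes overlapped, and each fell under 10 TPM in at least 1 library. With Mrpl23, Mrpl45 and Mrpl47 they are the 7 members that did not hold 10 TPM throughout.

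The Mrps18 paralogs descend from 1 bacterial protein but occupy different places. Mrps18c, the counterpart of the bacterial protein, measured 72.5, 73.19 and 74.93 TPM. Mrps18b (mS40), which sits elsewhere in the small subunit, measured 79.26, 72.82 and 86.97 TPM, and Mrps18a (mL66) in the large subunit measured 61.64, 61.45 and 66.91 TPM. Over all transcripts, the Mrps18a range lay under that of both others, which overlapped. In protein-coding transcripts alone, Mrps18a held 37.67, 31.78 and 34.66 TPM, above Mrps18c at 35.08, 31.71 and 22.98 TPM in each library. Mrps18b held 60, 54.89 and 66.62 TPM there. Mrps30 (mL65) stood lower over all transcripts, at 22.96, 25.68 and 19.93 TPM. Mrps36, the gene outside the ribosome, measured 45.67, 41.98 and 40.7 TPM, inside the range of the true subunits. Mrps26 and Mrps25, both specific to mitochondria, measured 43.4 ± 4.68 and 25.2 ± 2.22 TPM over all transcripts. Their protein-coding transcripts held 0.713 ± 0.214 and 1.87 ± 0.242 TPM.

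The other arms of mitochondrial protein synthesis were taken from gene lists, each matched in full by symbol. The 5 mitoribosome proteins without an Mrp symbol had a median of 68.3 ± 5.02 TPM, above that of the 78 members. They were Aurkaip1 at 100.3 ± 3.51, Dap3, a GTP-binding protein of the small subunit, at 100.1 ± 7.42, Chchd1 at 68.3 ± 5.02, the pentatricopeptide repeat protein Ptcd3 at 38.9 ± 4.61 and Gadd45gip1 (mL64) at 18.8 ± 0.540 TPM. The factors that drive the ribosome stood lower than its proteins, with a median of 18.7 ± 2.17 TPM over 12 genes. Tufm, the elongation factor that delivers aminoacyl-tRNA, was highest at 75.6 ± 6.22 TPM, then the translocase Gfm1 at 26.9 ± 2.47 and Guf1 at 24.6 ± 1.72 TPM. The release factor Mtrf1l stood at 8.27 ± 2.62 TPM, the activator Taco1 at 3.88 ± 0.344 and Mtrf1 at 1.97 ± 1.07 TPM.

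Assembly and ribosomal RNA modification factors (23 genes) had a median of 20.4 ± 0.508 TPM. The RNA helicase Dhx30 reached 93.9 ± 1.34 TPM, Mterf3 68.3 ± 0.418 and Malsu1 47.1 ± 4.33 TPM, while the methyltransferases Tfb1m and Mrm2 and the RNA-processing factor Ybey stood at 5.95 ± 0.361, 1.11 ± 0.714 and 1.62 ± 0.604 TPM. The mitochondrial aminoacyl-tRNA synthetase list (20 genes) had a median of 15.4 ± 0.762 TPM, from Mars2 at 1.59 ± 0.155, Pars2 at 3.23 ± 1.46 and Gatc at 5.36 ± 0.891 to Fars2 at 29.7 ± 2.81, Tars2 at 38.5 ± 1.26 and Lars2 at 145 ± 45.8 TPM. Genes for mitochondrial DNA and transcript maintenance (10 genes) had a median of 38.8 ± 1.33 TPM, with the polymerase subunits Polg2 at 178.6 ± 3.46 and Polg at 79.3 ± 1.99, the packaging factor Tfam at 80.2 ± 6.91, Lrpprc at 23.7 ± 1.33, the helicase Twnk at 5.12 ± 1.52 and Tefm at 4.22 ± 1.14 TPM. Genes for membrane insertion and protein quality control (10 genes) had a median of 44.2 ± 3.31 TPM, from the prohibitin Phb2 at 111.4 ± 11.4, Letm1 at 93.2 ± 6.48 and Spg7 at 67.5 ± 2.69 to Clpp at 33.8 ± 4.67, the insertase Oxa1l at 28.1 ± 4.08 and Clpx at 26.7 ± 1.18 TPM. Of the transcription factor list (10 genes, median 25.6 ± 2.66 TPM), Gabpb1 stood at 194.8 ± 11.5, Myc at 136.2 ± 25.02, Nrf1 at 77.1 ± 5.16 and the coactivators Ppargc1b and Ppargc1a at 9.52 ± 1.03 and 1.21 ± 1.24 TPM, with Esrra at 12.3 ± 1.96 TPM.

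The members' median of 39.6 TPM lay above those of the mitochondrial translation factors, assembly factors and aminoacyl-tRNA synthetases, and under those of cytosolic ribosomal and respiratory chain genes. The 83 cytosolic ribosomal protein genes had a median of 572 ± 114 TPM and held 7.91% of protein-coding TPM, against 0.416% for the 78 mitochondrial ones. The 84 nuclear genes for respiratory chain and ATP synthase subunits had a median of 123 ± 2.93 TPM. The 13 mitochondrially encoded messages, which the mitoribosome translates, had a median of 1551 ± 108 TPM.

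**Figure D2:**
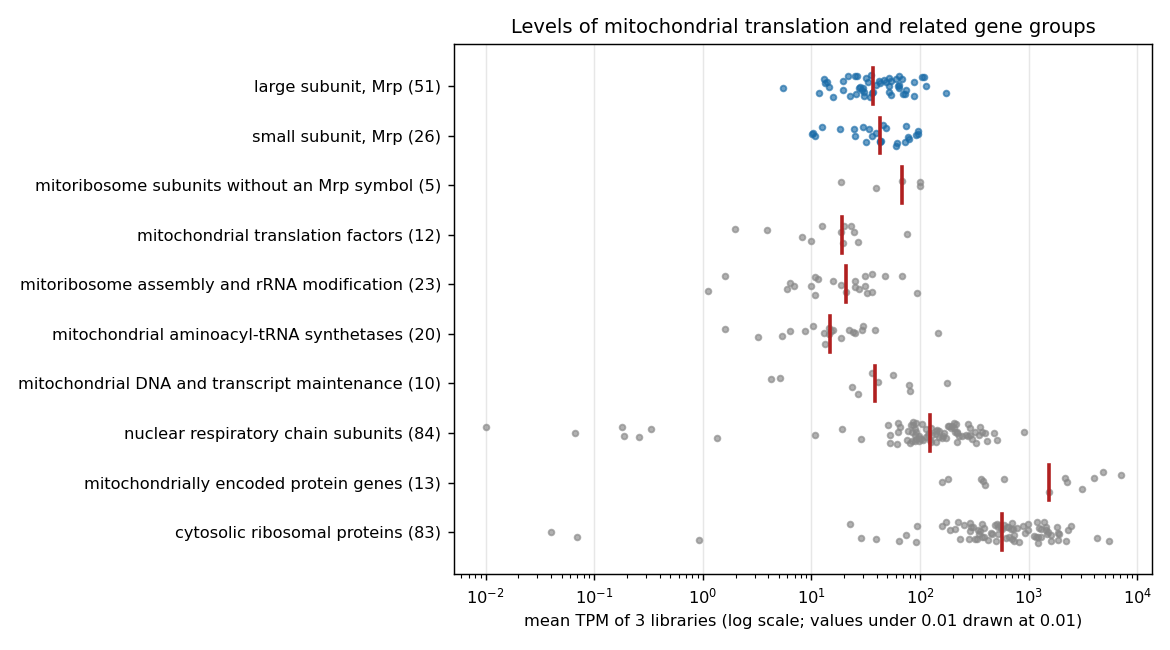
Mean TPM over 3 libraries (log axis) of each gene in 10 groups, with the number of genes in parentheses and the median of the gene means as a red line. Both subunits of the mitoribosome lie between 5.46 and 172 TPM, under most cytosolic ribosomal, respiratory chain and mitochondrially encoded genes.

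Differences between the libraries were tested per gene with a chi-square test, divided by its median inflation of 6.449 over 13938 genes and adjusted by the Benjamini-Hochberg method. None of the 78 members passed an adjusted p of 0.05, where 4.46% of all genes tested passed. None reached an unadjusted p of 0.05 either, where 11.4% of all genes did. Without the division, 32 of the 78 passed (41.0%), against 57.2% of all genes. With no minimum count, the median inflation used for the division was 2.925. In that setting 1 member, Mrpl28 (bL28m, named here after its values were seen), passed at an adjusted p of 0.0333, where 5.1% of all genes passed. Mrpl28 also had the lowest adjusted p of the main test, 0.453, at 29.53, 45.61 and 33.2 TPM.

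A shift is the log2 normalised CPM (counts scaled to library size) of a library minus the mean of the 3 libraries. The median shifts of the large subunit genes were −0.03, 0.00 and 0.05 in libraries 1, 2 and 3, and those of the small subunit genes −0.03, 0.01 and 0.02. Over all genes tested they were −0.00, 0.03 and −0.02. The signs of several medians turned with the setting. That of the small subunit in library 1 was 0.004 without library 2 and 0.02 with the second gene table, and in library 2 it was −0.02 with total counts. In library 3 it was −0.001 without library 1 and −0.004 without library 2. That of the large subunit in library 2 was −0.02 without library 1, −0.03 with total counts and −0.03 with the second gene table. Single shifts of large subunit genes ran from −0.54 to 0.53 and those of small subunit genes from −0.32 to 0.27. In normalised counts, 4 members had a ratio of highest to lowest library over 1.5, and 1 of them over 2. They were Mrpl23 at 2.04, Mrpl47 at 1.95, Mrpl22 at 1.65 and Mrpl28 at 1.57, of which Mrpl22 and Mrpl28 were named after their values were seen. The Mrpl23 ratio rests on how reads shared with a pseudogene were assigned, with an SD of up to 29.9% of its count. Summed with that pseudogene, Mrpl23 stood at 103.43, 99.11 and 117.37 TPM. The highest TPM fell in library 1 for 24 members, in library 2 for 20 and in library 3 for 34. The members' median coefficient of variation was 9.51%, and that of protein-coding genes above 10 TPM was 8.60%.

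Cytosolic ribosomal protein genes differed between the libraries. Of 80 tested, 59 passed, with median shifts of 0.14, −0.27 and 0.13, so library 2 was the low one. The mitochondrially encoded messages were also lower in library 2, with median shifts of 0.10, −0.13 and 0.05, and 9 of 13 passed. Of 77 nuclear respiratory chain genes tested, 1 passed, and their medians were 0.02, 0.00 and 0.00. Across the 7 lists, 1 of 20 aminoacyl-tRNA synthetase genes passed, Lars2 at 165.12, 93.06 and 178.16 TPM with an adjusted p of 2.4e-29, and 1 of 10 transcription factors, Myc at 115.82, 164.13 and 128.68 TPM with an adjusted p of 1.2e-05. No gene of the other 5 lists passed. Of all genes tested, 4.46% passed, and 1 of 20 is near that share. Library 2 was low for Lars2 and high for Myc. Across members, shifts had a rho with effective length of −0.16, 0.17 and 0.05 in libraries 1, 2 and 3 (n = 78).

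**Figure D3:**
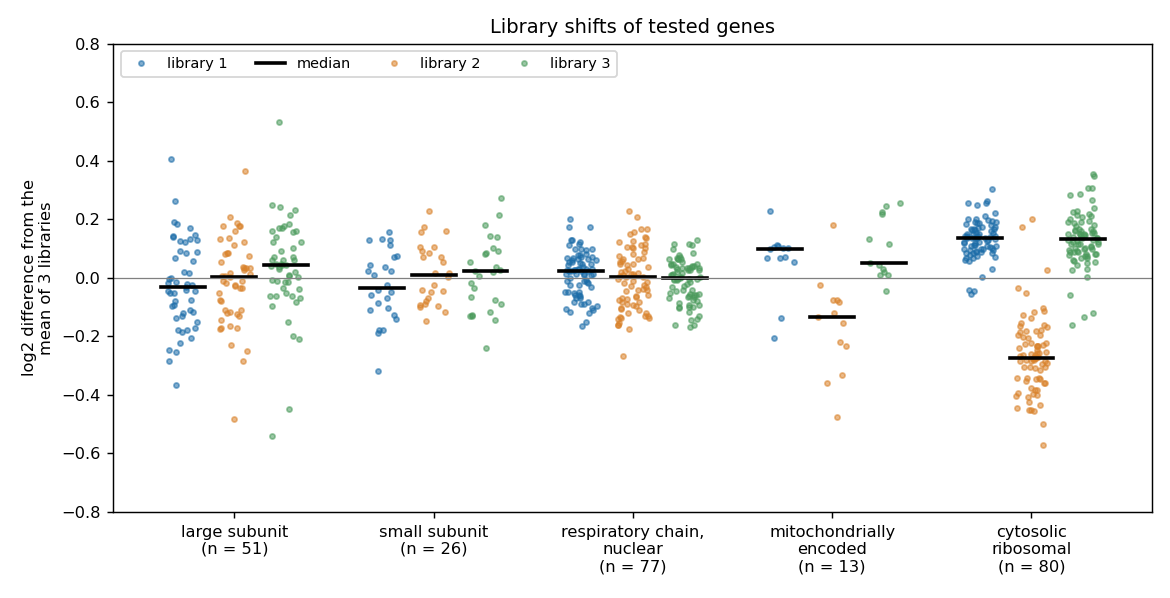
Shift of each tested gene in libraries 1, 2 and 3 (log2 difference from the gene's mean over the libraries), with black bars for the median. The medians of both mitoribosome subunits stay within 0.05 of zero in the main setting, whereas the cytosolic ribosomal genes sit at −0.27 in library 2.

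The deposited transcript tables divide each gene among its annotated transcripts. For 55 of the 78 members the leading transcript was annotated as protein coding, and for 23 (29.5%) it was not. Among the protein-coding genes above 10 TPM, 14.2% (1027 of 7247) had a leading transcript of another type. The 23 were split into 8 annotated for nonsense-mediated decay, a route that destroys messages with an early stop, 8 processed transcripts with no reading frame and 7 with a retained intron. The share was 13 of 51 in the large subunit and 10 of 26 in the small subunit. The median member had 78.4% of its TPM and 83.2% of its counts in coding transcripts, against 83.5% and 91.9% for protein-coding genes above 10 TPM. The median leading transcript was 833 bases long in members and 2259 bases in those genes.

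Several of the most abundant members were led by such a transcript. Of the Mrpl32 level, Mrpl32-201, annotated for nonsense-mediated decay, held 89.77, 95.39 and 98.87 TPM, which is 84.3% of the gene. The coding transcripts of Mrpl32 held 2.01, 1.02 and 2.28 TPM. Mrps14-201, of the same type, held 92.2% of Mrps14, and Mrps24-201, with a retained intron, held 93.6% of Mrps24. Mrpl57-202 and Mrps26-201, both with a retained intron, held 98.4% and 98.4% of their genes. Mrps16-202, a processed transcript, held 94.2% of Mrps16. These are shares of TPM. By counts, coding transcripts held 5.64% of Mrpl32, 22.3% of Mrps14, 2.79% of Mrps24, 8.73% of Mrpl57, 6.52% of Mrps26 and 17.0% of Mrps16. In Mrps25 they held 7.42% of TPM and 47.8% of counts. In Mrpl3 the leading transcript Mrpl3-204 held 62.3%, and coding transcripts held 9.95% of TPM and 14.8% of counts.

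Mrpl33 and Mrpl54, both among the highest, were led by a coding transcript, with 75.2% and 89.0% of their TPM in coding transcripts. By counts these shares were 51.5% for Mrpl33 and 90.4% for Mrpl54. With coding transcripts alone, a setting added after seeing the data, the medians were 24.3 TPM for the large and 25.6 TPM for the small subunit. How well reads of sheared fragments separate transcripts that share most exons was not tested.

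**Figure D4:**
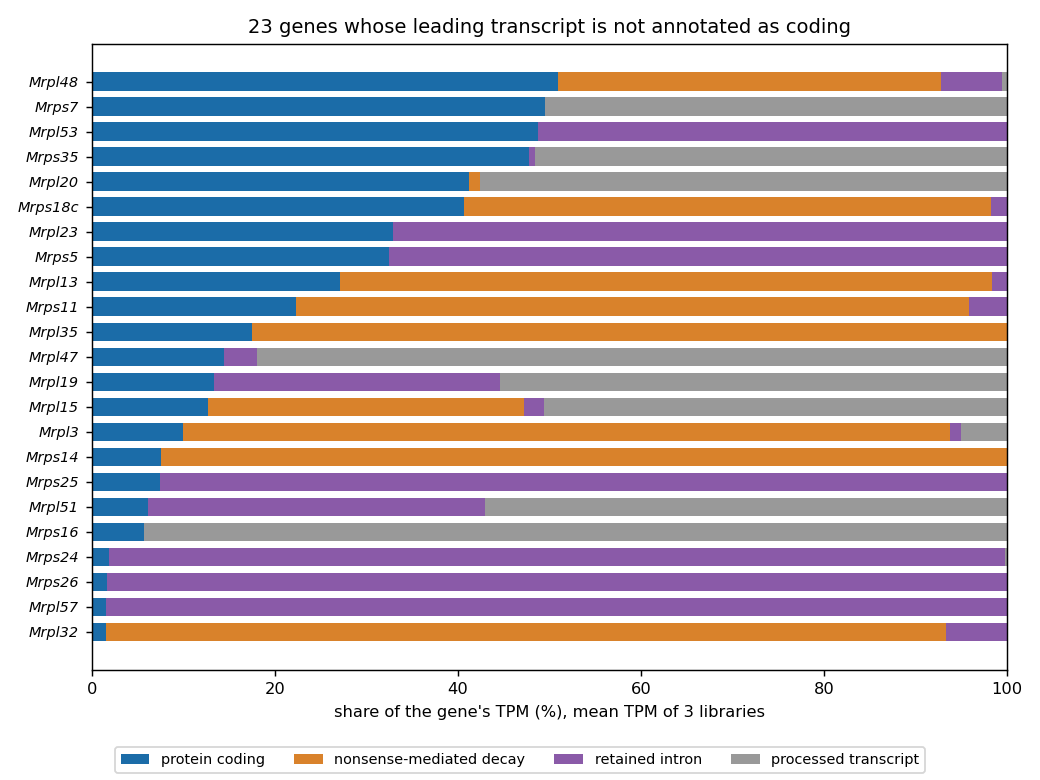
Share of each gene's mean TPM (%) assigned to protein-coding transcripts, nonsense-mediated decay transcripts, retained-intron transcripts and processed transcripts, for the 23 genes whose leading transcript is not coding. Coding transcripts hold under 10% of TPM in 9 of the genes, Mrpl32 among them. Shares by counts are not drawn.

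Some members share sequence with other genes, and the deposited posterior standard deviation of the count shows how firmly reads were assigned. It was over 5% of the count in at least 1 library for 2 members, Mrpl23 (29.9%) and Mrps25 (6.40%), and 0 in 29 members. Of the leading coding transcripts, 46 shared at least 1 word of 50 bases with another gene, and 5 shared over 50% of their words. Words were searched on both strands, so exons that overlap a gene on the other strand count as shared. Mrpl23 shared 84.7% of its words with the processed pseudogene Mrpl23-ps1, an intronless copy on chromosome 2 (74591330 to 74591909, minus strand). The coding sequence of Mrpl23-201, 438 bases long, aligned to the pseudogene with 0 mismatches. Mrpl23-ps1 was assigned 99.38, 96.75 and 107.4 TPM, against 4.05, 2.36 and 9.97 TPM for Mrpl23 itself. The sum over both was 103.43, 99.11 and 117.37 TPM, with a mean of 106.6 ± 9.54 TPM. Reads inside the shared 438 bases cannot be told apart between the pair.

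The first 150 coding bases of Mrpl23, on chromosome 7, are shown because the same 150 bases make up positions 18 to 167 of the pseudogene transcript. In lower case throughout, since no base differs, they read as follows.
Mrpl23-201: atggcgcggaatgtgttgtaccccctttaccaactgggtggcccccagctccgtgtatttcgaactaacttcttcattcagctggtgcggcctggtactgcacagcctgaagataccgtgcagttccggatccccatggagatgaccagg

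Mrps36 differed from its pseudogene Mrps36-ps1 (chromosome 17, 53866715 to 53867020, minus strand) at 2 of 306 coding bases, and both lie in the first 150. Mrps36-ps1 was listed at 0 in every library, whereas Mrps36 was assigned 42.8 ± 2.58 TPM. The first 150 coding bases of both are shown with the differing bases in capitals, as the contrast to the identical Mrpl23 pair.
Mrps36-203: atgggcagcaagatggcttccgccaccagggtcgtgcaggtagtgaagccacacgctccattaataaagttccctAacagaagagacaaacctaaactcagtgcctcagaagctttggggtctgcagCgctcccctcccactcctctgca
Mrps36-ps1: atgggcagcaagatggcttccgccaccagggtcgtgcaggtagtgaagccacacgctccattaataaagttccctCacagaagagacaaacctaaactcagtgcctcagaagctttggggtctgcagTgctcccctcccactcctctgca

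Mrps33, named after its values were seen, matched the pseudogene Gm5776 (chromosome 7, 54412158 to 54412478, minus strand) in all but 1 of 318 coding bases. Gm5776 was assigned 25.01, 17.77 and 29 TPM, and Mrps33 62.75, 58.96 and 57.96 TPM. The second gene table, of whole-number counts, gave 5.62 counts per 100 estimated counts for Mrpl23, 8.42 for Mrps33 and 3.13 for Mrps36. The median of the 77 members listed there was 56.3 per 100, against 50.95 over 11327 protein-coding genes. These 3 were the members under 10 per 100, where 6.78% of those genes were. No other member was aligned to a pseudogene. Mrpl22, Mrpl27 and Mrps10, named after their values were seen, shared 33.4%, 29.3% and 24.8% of their words with a processed pseudogene. They stood at 48.5, 34.2 and 21.6 per 100. A link between such pseudogenes and this ratio was not tested. Mrpl53 and Mrps34, also named after the fact, shared 100% and 52.4% of their words with the overlapping genes Gm42688 and Mapk8ip3. Gm42688 lies on the same strand and Mapk8ip3 on the other strand. Mrps25 shared 73.9% with Nr2c2, which overlaps it on the other strand. Mrps18b shared 63.7% with other genes, and 52.9% with Gm16279, which overlaps it on the other strand.

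**Figure D5:**
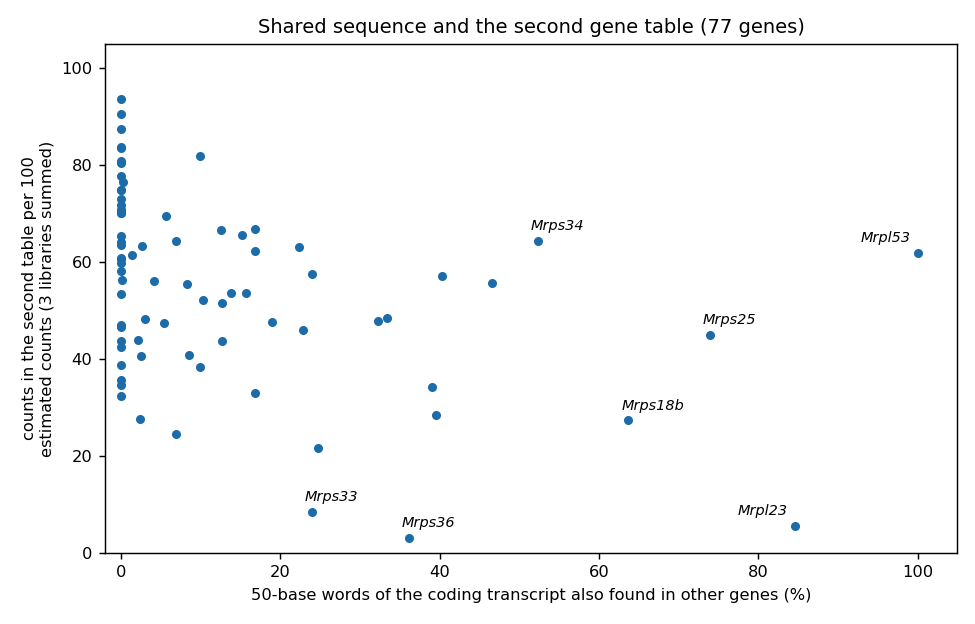
Counts in the second gene table per 100 estimated counts, against the share (%) of 50-base words of each gene's leading coding transcript that occur in other genes, for 77 genes. Mrpl23, Mrps33 and Mrps36 lie lowest at 5.62, 8.42 and 3.13 per 100. They are the only members that were aligned to a processed pseudogene, with at most 2 mismatches each, and a link of the 2 traits was not tested.

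The members lay on 17 chromosomes, with 11 of them on chromosome 11. A divergent neighbour, that is a protein-coding gene on the other strand whose 5′ end lies within 1000 bases, was found for 33 of the 78 (42.3%). Among protein-coding genes above 10 TPM, 18.7% had one, and among all protein-coding genes 10.9%. The median distance between the 5′ ends was 128 bases. The neighbour's mean over the libraries was 10 TPM or more in 23 of the 33 and above the member's mean in 10. The median neighbour measured 16.3 TPM and the median member of such a pair 41.5 TPM.

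Some neighbours work in mitochondria too, and these were named after their values were seen. Mrpl46 (28.0 ± 3.99 TPM) and Mrps11 (18.2 ± 3.33 TPM) form a pair of members from both subunits. Mrpl36 stood opposite Ndufs6, a subunit of complex I, at 39.3 against 89.9 TPM, and Mrpl47 opposite Ndufb5, another one, at 13.8 against 98.0 TPM. Mrps12 stood opposite Sars2, the mitochondrial seryl-tRNA synthetase, at 42.4 against 15.8 TPM, and Mrpl43 opposite the helicase gene Twnk at 29.9 against 5.12 TPM. Mrpl49 stood at 21.7 TPM opposite Fau, which encodes a cytosolic ribosomal protein, at 706 TPM. Exons overlapped those of a gene on the other strand in 28 members, in 13 over more than 10% of exonic bases. The sources used here do not state whether counting used strand. How well reads inside such overlaps were separated was not tested.

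Promoters from RefSeq (GRCm38.p6, 250 bases before to 50 after the annotated start) were matched by symbol for 69 of the 78 genes. They were searched on both strands for letters bound by factors known from genes of this kind. NRF1, a master regulator of nuclear genes for mitochondria, binds GCGCA, any base and then GCGC, a match found in 13 of 69 (18.8%), in 12.9% of 5864 promoters of genes above 10 TPM and in 6.85% of all 16538 promoters. The ETS letters CCGGAAGT, bound by GABP, were in 15.9%, 11.2% and 5.67% respectively. The YY1 letters AAGATGGCG were in 11.6%, 4.35% and 2.08%. At least 1 of these 3 motifs was in 43.5% of the members' promoters, 26.3% of those above 10 TPM and 13.6% of all. The SP1 letters GGGCGGG were in 42%, 51.3% and 35.7%, and the TATA letters TATAAA in 5.8%, 6.34% and 12.8%.

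Stretches before the start that hold an NRF1 or ETS match are shown for 5 members, in the direction of transcription with the motif in capitals. They include low members (Mrpl45, Mrps22 and Mrps27) and a gene of the factor-binding stalk (Mrpl12). A match is a run of letters and not a measured binding site.
Mrpl12, NRF1, chr11:120484513-120484612, plus strand: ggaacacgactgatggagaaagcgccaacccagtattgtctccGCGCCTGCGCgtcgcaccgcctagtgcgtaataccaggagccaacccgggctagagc
Mrpl45, NRF1, chr11:97315616-97315715, plus strand: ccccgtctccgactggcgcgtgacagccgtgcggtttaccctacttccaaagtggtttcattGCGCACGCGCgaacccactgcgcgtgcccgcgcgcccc
Mrpl43, ETS, chr19:45006443-45006542, minus strand: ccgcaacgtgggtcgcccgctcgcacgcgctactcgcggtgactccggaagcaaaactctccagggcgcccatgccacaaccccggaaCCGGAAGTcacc
Mrps22, ETS, chr9:98601680-98601779, minus strand: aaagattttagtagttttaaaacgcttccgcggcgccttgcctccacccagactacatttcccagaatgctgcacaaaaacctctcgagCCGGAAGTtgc
Mrps27, ETS, chr13:99344706-99344785, plus strand: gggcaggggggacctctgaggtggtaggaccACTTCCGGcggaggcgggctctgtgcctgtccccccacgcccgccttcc
Mrps22, at 10.3 ± 1.37 TPM, Mrps27, at 12.5 ± 2.22 TPM, and Mrpl43, at 29.9 ± 4.25 TPM, held ETS letters close to the start. Mrpl12 and Mrpl45 held NRF1 letters at 27.2 ± 2.76 and 11.8 ± 1.78 TPM. The 5 shown all lie under the members' median of 39.6 TPM. Stretches with a match in Mrps18c (ETS), Mrpl17 and Mrpl9 (both NRF1) are not shown, at 73.5, 64.3 and 52.2 TPM. Mrpl17 and Mrpl9 were named after their values were seen. ETS letters also lay at the start of Mrpl33, at 172 TPM. A relation of motif and level was not tested.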

How the data were processed

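The 3 libraries of 1 mouse were compared with each other, since the labels give no second group. Per the file headers, the authors deposited expected counts, which share ambiguous reads among genes, with TPM, FPKM, posterior mean TPM and the posterior standard deviation of each count. The transcript tables deposited by the authors also give each transcript's percent of its gene, per the file headers. The labels name mm10 and GENCODE M21 for these tables. A second deposited gene table without a header holds whole-number counts on GENCODE M4, per the labels, for 22457 genes. The aligner, the quantifier, the strand setting and how genes of the second table were chosen are steps not given in the sources used here.

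Of 55536 gene rows, 55450 matched the annotation used here, and the others took 0.0413%, 0.0396% and 0.0429% of counts in libraries 1, 2 and 3. A further 26345 rows name no gene (0.188%, 0.579% and 0.24% of counts) and were left out. Of the second table, 22195 rows matched. Its totals over matched genes were 5104989, 4807376 and 4574561.

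The members and lists were chosen with earlier results of these data known. Expected counts were rounded and tested per gene for equal shares over the libraries, with TMM effective library sizes (edgeR 4.0.16) and at least 30 counts in all. The chi-square with 2 degrees of freedom was divided by its median inflation of 6.449, whose source was not tested. P-values were adjusted over 13938 genes by the Benjamini-Hochberg method at 0.05. They concern libraries of 1 mouse and measure a spread that is technical. Shifts used log2(CPM + 0.1). Words of 50 bases came from the GENCODE M21 transcripts and were searched on both strands.

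Named genes were the 5 highest and 5 lowest of each subunit, members that illustrate roles, members with an assignment uncertainty over 5% and those with the lowest share in a coding transcript (up to 10). List genes were the 3 highest, the 3 lowest and key genes. Every other name is marked in the text as picked later, apart from genes named only as the partner of a member. The erythroid marker list is not reported here.

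Alternatives were DESeq2 1.42.0 size factors, total counts, other count minimums and pseudocounts, no division, the second table, FPKM, posterior mean TPM, other TPM limits, subunits by symbol and leaving out each library. Added after seeing the data were coding transcripts alone and leaving out members that share sequence. Analyses used Python 3.11.15, numpy 2.4.6, scipy 1.17.1, pandas 2.3.3, matplotlib 3.10.9 and R 4.3.3.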

Additional observations from a re-analysis of the deposited data

How the results depend on the processing

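Of 89 recomputed values, 73 were labelled as kept and 16 as moved. A count was kept if it equalled the main count or lay within 1.5-fold of it. The 57 members at 10 TPM with coding transcripts alone were thus kept beside 71 in the main setting. A median or share was kept if it moved by less than its SD over the libraries, so a median shift could turn its sign and still be kept. The count of members called by the library test was 0 in the main test and with size factors of DESeq2, where 4.46% of all genes were called each time. It was also 0 with total counts (3.74% of all genes), the second gene table (1.5%) and a minimum of 300 counts (5.02%). Without library 1, 2 or 3 it was 0 as well, where 3.07%, 0.349% and 3.03% of all genes were called. It was 1 with no count minimum, where the median inflation was 2.925 and 5.1% of all genes were called. With no division by the inflation it was 32, where 57.2% of all genes were called. The median TPM of the large subunit (main value 37.3) was 22.67 in FPKM, 32.82 as posterior mean TPM, 84.28 from the second table per length, 24.28 with coding transcripts alone and 39.66 without members that share over 50% of words. That of the small subunit (41.09) was 24.96, 36.12, 79.77 and 25.64 under the first 4 of these, and 40.08 without sharing members. The median shift of the small subunit in library 1 (−0.03) was 0.02104 with the second table and ranged from −0.02353 to 0.003933 when libraries were left out. With total counts it was −0.02379 in library 2 and 0.05783 in library 3. The share of protein-coding TPM (0.4159%) was 0.2059% as a share of counts. The causes of these moves were not tested.

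No paired analysis was possible because all libraries form 1 group. The 1 mouse and 3 technical libraries give no measure of the spread between animals. A gene with 0 counts allows up to 3 counts, a limit that covers counting error only.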
